A study of Mus musculus with 2 samples.

Results

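The centromere-proximal boundaries of the mouse autosomes were the 508 entries of a Hi-C boundary list that start below 13 Mb on chromosomes 1 to 19. The list holds 7186 autosomal boundaries and 7610 in all. Mouse chromosomes carry their centromere at one end, and the first 3 Mb of each chromosome are an unsequenced placeholder in the assembly, so the window covers the first 10 Mb of real sequence (189.1 Mb over the 19 autosomes). Chromatin contacts were measured in mature olfactory sensory neurons that were sorted from olfactory epithelium, and the adult donors were mice of either sex and of unspecified strain. OMP-Cre, which acts in mature olfactory neurons, drove a conditional deletion of Ldb1 in these mice. The Ldb1 protein is a cofactor that joins DNA-bound factors to one another. Both replicates (1000000 cells each, fixed in 1% formaldehyde, cut with DpnII) carried this deletion, and no neurons with intact Ldb1 were analysed here. Boundaries were called on the pooled contacts of both, so no value below has a replicate error, the depth is unknown, and a boundary list can check neither the deletion nor the cell type.

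A boundary is a position that few chromatin contacts cross, and it separates neighbouring contact domains. Many boundaries form where CTCF halts cohesin, the ring complex that extrudes chromatin loops, and others stand at active promoters. Mouse centromeres are flanked by long satellite arrays that gather into heterochromatic chromocentres, and in olfactory neurons the silent olfactory receptor genes also gather in heterochromatic foci. The sequence next to a centromere is the assembled sequence closest to the satellites. It often holds duplicated gene families.

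The CTCF consensus at strong proximal boundaries shows the kind of sequence counted below. The set is the match nearest to the bin centre at 5 strong window boundaries, chosen by rank among those with a match within 10 kb and outside annotated UTRs. Each line gives the gene with the nearest protein-coding transcription start site (TSS), the GRCm38 position and the strand, and is read 5′ to 3′ on that strand. Capitals mark the 12 bases of the match.
Zmynd11, chr13:9882432-9882503, forward: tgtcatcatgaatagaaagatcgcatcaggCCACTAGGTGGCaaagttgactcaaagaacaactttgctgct
Frmd4a, chr2:3800184-3800255, reverse: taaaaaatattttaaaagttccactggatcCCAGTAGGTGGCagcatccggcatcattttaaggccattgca
Olfr1423, chr19:12015870-12015941, forward: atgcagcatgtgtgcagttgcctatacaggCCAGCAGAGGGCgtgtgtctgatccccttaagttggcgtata
Gdf7, chr12:8306705-8306776, reverse: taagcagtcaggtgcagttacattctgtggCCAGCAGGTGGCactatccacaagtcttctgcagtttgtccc
1810013L24Rik, chr16:8883792-8883863, forward: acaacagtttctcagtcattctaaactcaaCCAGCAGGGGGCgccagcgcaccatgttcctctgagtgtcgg
The match near Gdf7 lay inside the boundary bin (strength 2.05), and the others lay 6.17 to 9.78 kb outside theirs. The match near Zmynd11 was in an intron of Chrm3, and the other 4 were outside protein-coding genes. All 12 bases of the match near Olfr1423 were soft-masked repeat, and no base was in the other 4. A match is a sequence and not a measurement of CTCF binding. Among the 10 strongest window boundaries, 2 had a match within 10 kb, so most of the strongest are not represented by these letters.

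Proximal windows held fewer boundaries per Mb than the rest of the same autosomes on average, but the difference did not pass adjustment. Over the 19 windows the density ranged from 1.50 per Mb on chromosome 14 to 3.95 per Mb on chromosome 19, with a median of 2.60. The rest of the same autosomes ranged from 2.64 to 3.54 per Mb. The 2 ranges overlapped, and the window was lower on 14 autosomes and higher on 5 (chromosomes 8, 11, 15, 18 and 19). The mean difference was -0.34 boundaries per Mb ± 0.572 (SD, n = 19 autosomes; permutation p = 0.0196, adjusted permutation p = 0.0589). Summed over autosomes the density was 2.69 per Mb in the windows (95% Poisson interval 2.46 to 2.93) and 3.03 per Mb elsewhere (2.95 to 3.10). The ratio was 0.888 (exact binomial 95% interval 0.810 to 0.972). These intervals treat boundaries as independent counts and leave out the spread between autosomes. On the summed counts the difference did not pass adjustment either (exact binomial test p = 0.00922, adjusted p = 0.0553).

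**Figure D1:**
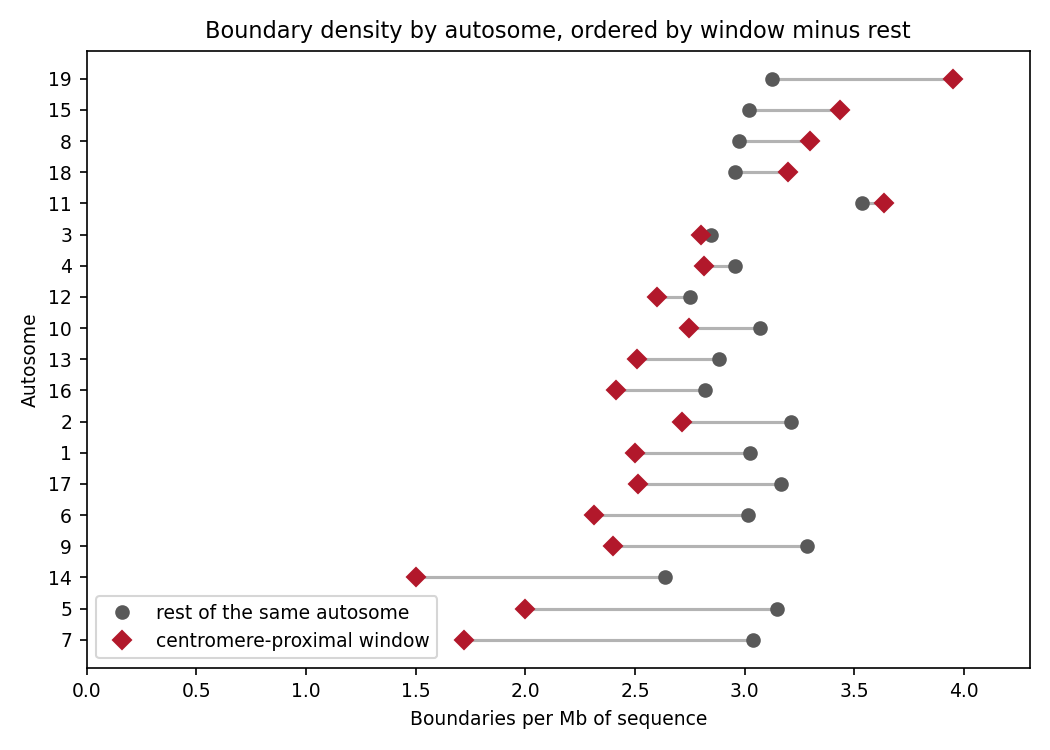
Boundary density in boundaries per Mb for each autosome, in the centromere-proximal window (diamonds) and in the rest of the same autosome (circles), ordered by their difference. The window lies below the rest on 14 autosomes, with chromosomes 7, 5 and 14 at the bottom and chromosome 19 at the top.

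The window fell furthest below the rest on 3 autosomes. Chromosome 7 had 1.72 boundaries per Mb in the window and 3.04 in the rest. Chromosome 5 had 2.00 and 3.15, and chromosome 14 had 1.50 and 2.64. The opposite case was chromosome 19, whose window held 39 boundaries at 3.95 per Mb, against 3.12 per Mb in its rest. Chromosome 11 was close to even, at 3.64 in the window and 3.54 in the rest. Without chromosome 19 the mean difference was -0.40 (adjusted permutation p = 0.0244), and without chromosomes 7 and 14 it was -0.23 (adjusted permutation p = 0.117).

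**Figure D2:**
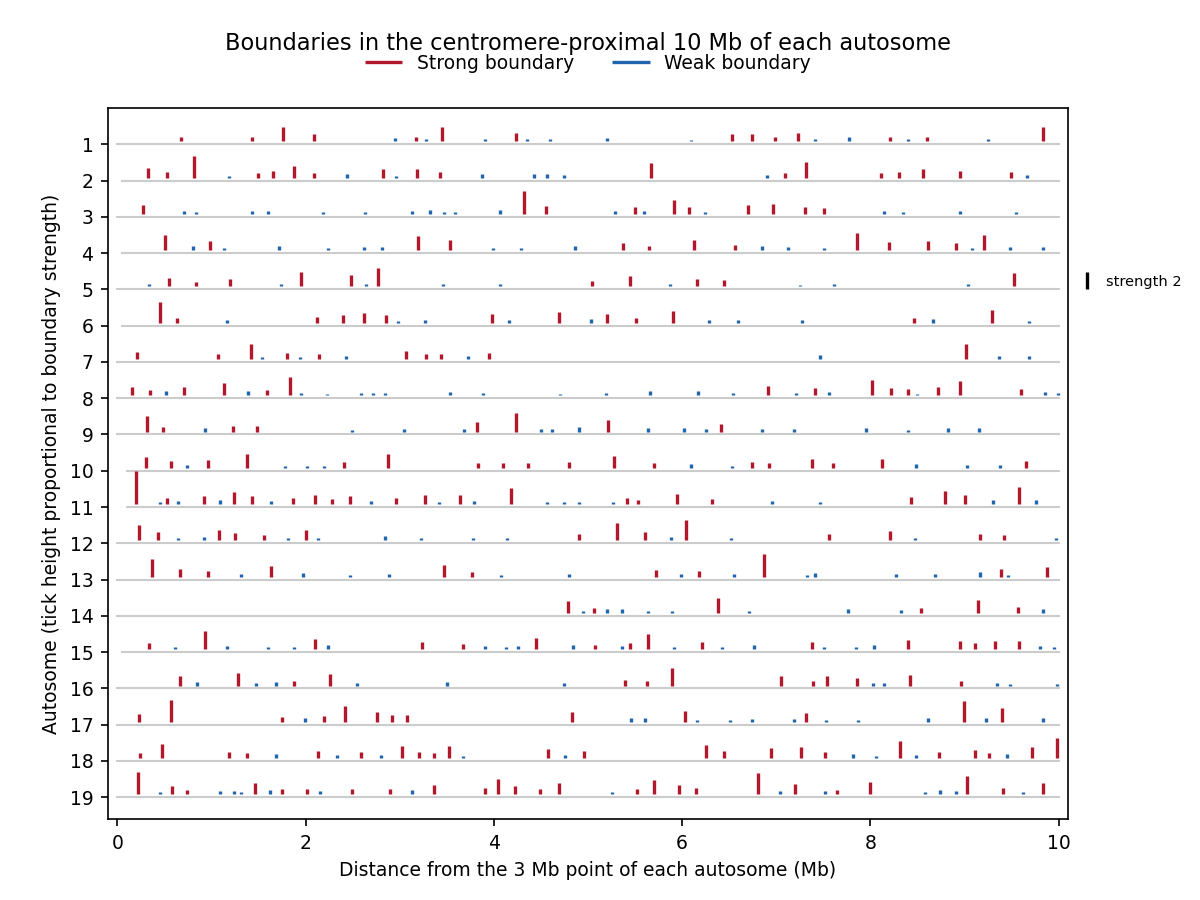
Every boundary of the 19 windows by its distance in Mb from the 3 Mb point of its autosome, with tick height proportional to strength, strong boundaries in red and weak ones in blue. Chromosome 14 has no boundary in its first 4785 kb of sequence, and chromosome 7 has an empty stretch of 3515 kb.

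The next 10 Mb had a density similar in value to that of the window. In tiles of 10 Mb along the autosomes, the first tile held 2.69 ± 0.621 boundaries per Mb (mean and SD over 19 autosomes) and the second 2.62 ± 0.451. The third held 3.06 ± 0.694, and tiles 4 to 12 lay between 2.86 and 3.26. Shorter autosomes drop out along the way, and tile 12 (3.26) averages 11 autosomes. Against the next 10 Mb alone the window differed by 0.06 boundaries per Mb (adjusted permutation p = 0.825). Against the last 10 Mb of the autosomes it differed by -0.62 (adjusted permutation p = 0.00558, lower on 16 of 19). With the window extended to 23 Mb the difference from the rest passed, at -0.42 (adjusted permutation p = 0.00024, lower on 18 of 19). The first tile was the lowest tile of its chromosome on 4 autosomes and the highest on 1.

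**Figure D3:**
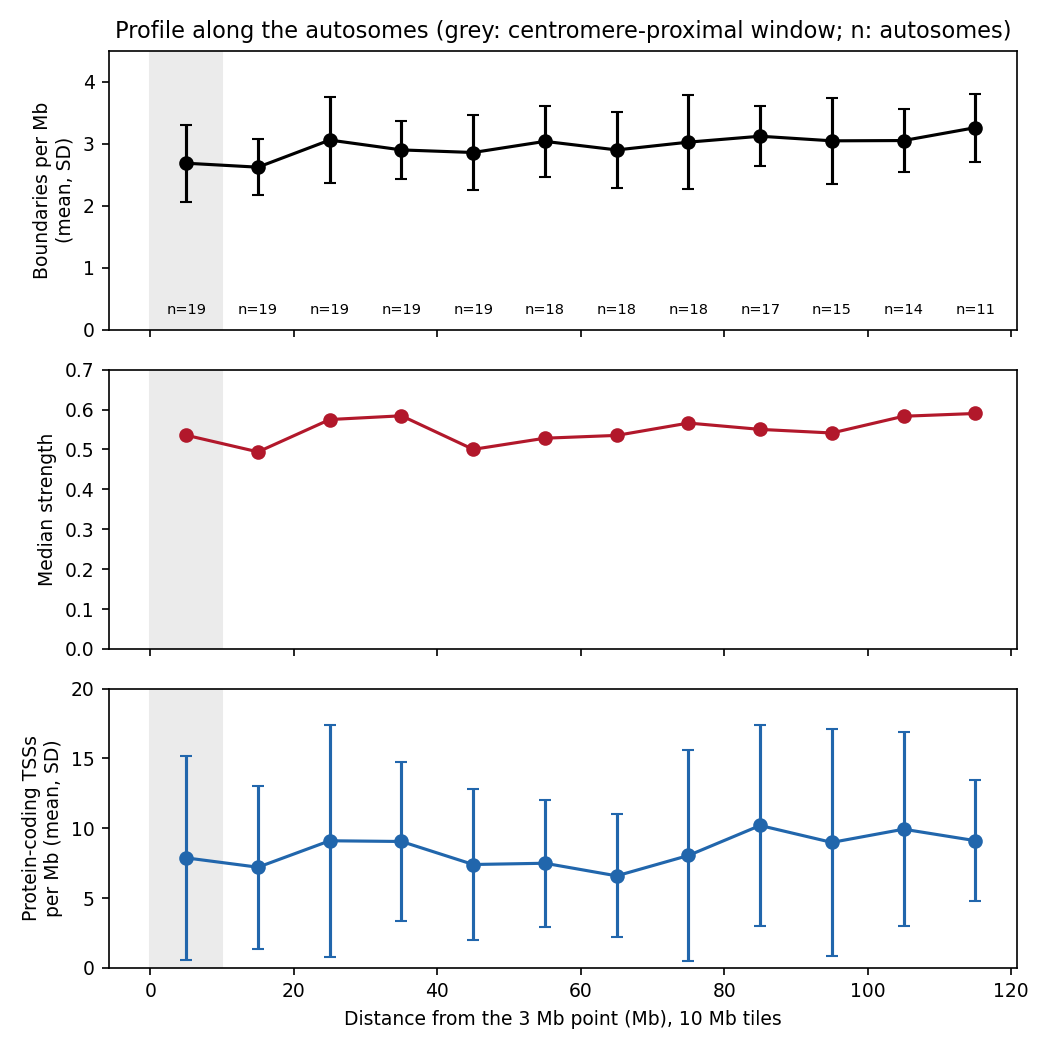
Mean boundary density (with SD over autosomes), median strength and mean density of protein-coding TSSs (with SD) in tiles of 10 Mb from the 3 Mb point, with the proximal window in grey. The first 2 tiles have the lowest mean boundary densities, 2.69 and 2.62 per Mb. The number of autosomes averaged falls from 19 to 11 along the tiles.

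Windows and rest also differed in gene density and sequence composition. The windows held 1486 protein-coding TSSs, or 7.86 per Mb against 8.76 in the rest, and 15 of 19 windows were below their own rest. The soft-masked repeat share was 38.2% in the windows and 33.1% elsewhere, higher in 17 of 19 windows. The GC content was 41.5% and 42.0%, lower in 12 of 19 windows. In 1 Mb tiles with 5 to 14 TSSs the windows had 2.89 boundaries per Mb (95% Poisson interval 2.5 to 3.33) and the rest 3.43 (3.30 to 3.56). With 15 or more TSSs the values were 3.33 (2.71 to 4.06) and 4.07 (3.88 to 4.27). With 1 to 4 TSSs the windows were higher, at 2.62 (2.25 to 3.03) against 2.39 (2.28 to 2.51). In tiles with no TSS they had 1.50 (1.05 to 2.08) against 1.79 (1.62 to 1.96). Within these classes of tiles the mean difference over autosomes was -0.26 boundaries per Mb (permutation p = 0.0454, adjusted permutation p = 0.0907). The part of repeat content in the difference was not tested.

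**Figure D4:**
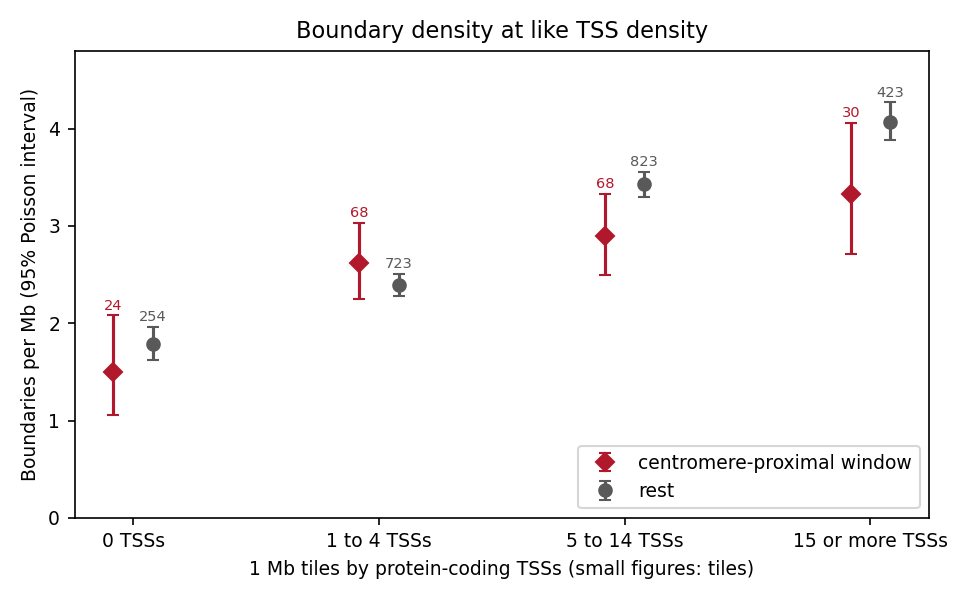
Boundaries per Mb, with 95% Poisson intervals, in 1 Mb tiles grouped by their number of protein-coding TSSs, for the proximal windows (diamonds) and the rest of the autosomes (circles), with the number of tiles above each point. Density rises with TSS number in both, from 1.50 to 3.33 in the windows and from 1.79 to 4.07 in the rest.

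Between windows, density did not follow TSS density closely. Pearson's r over the 19 windows was 0.246 and Spearman's rho 0.0965, and without chromosomes 7 and 19, the most extreme in TSS density, r was -0.0912. With the soft-masked share r was -0.439 (rho -0.433), and -0.427 without chromosomes 7 and 17. These are descriptions of 19 windows of 1 pooled genome.

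Spacing between neighbouring boundaries was wider in the windows on 10 autosomes and narrower on 8. Over all windows the median of 489 spacings was 280 kb (interquartile range 195 to 430 kb), and in the rest it was 260 kb (185 to 390 kb). The median spacing by autosome ran from 215 kb on chromosome 19 to 405 kb on chromosome 5. The mean difference of the medians was 28.2 kb ± 52.7 (SD, n = 19 autosomes; permutation p = 0.0302, adjusted permutation p = 0.0605), which did not pass. Spacings above 1000 kb made up 2.66% of the window spacings (13) and 2.15% of the others (143). Spacings under 100 kb made up 1.43% (7) and 1.08% (72).

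Of the 3 widest stretches between window boundaries, 2 followed each other on chromosome 7 over receptor gene families. The widest ran 3515 kb, from a boundary in an exon of Usp29 (6945001, strength 0.717) to one 16.7 kb from the TSS of Vmn1r67 (10460001, strength 0.435). It held 34 TSSs, from Aurkc to Vmn1r67, and 24 of them belonged to type 2 vomeronasal receptor genes, which encode pheromone receptors. The next boundary on chromosome 7 came after another 1555 kb, a stretch of 19 TSSs from Zik1 to Vmn1r76 that included type 1 vomeronasal receptor and Zscan4 genes. The soft-masked share was 55.2% in the first of these and 49.9% in the other, against 50.4% in the whole window of chromosome 7. The second widest stretch between boundaries of all windows, 1755 kb on chromosome 17 from Tulp4 to Fndc1, held 19 TSSs and included Ezr (ezrin) and Tcp10a. Its soft-masked share was 25.1%. Assembly gaps took up 50 kb of this stretch and 50 kb of the 3515 kb stretch on chromosome 7. The following were chosen after their values were seen. A stretch of 1430 kb on chromosome 5 held 13 TSSs from Gm8871 to 4933402N22Rik. One of 1300 kb on chromosome 18 held Fzd8 alone, a Wnt receptor gene, and one of 1165 kb on chromosome 16 held Grin2a alone, an NMDA receptor gene.

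The first boundary of an autosome was usually strong and lay about a median spacing from the start of the assembled sequence. Its median distance from the first assembled base was 280 kb, and the median spacing between window boundaries was also 280 kb. On 18 autosomes the first boundary lay between 95 kb (chromosome 11) and 675 kb (chromosome 1) from that base. On chromosome 14 it came after 4785 kb, 1.59 kb from the TSS of Gm26661 (7785001, strength 1.36). The boundary-free stretch before it held 99 protein-coding TSSs from Gm2888 to Gm10128, 96 of them with provisional Gm symbols, and was 61.9% soft-masked. Whether reads could be placed in these stretches was not measured here.

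Of the 19 first boundaries, 18 were strong, with a lowest strength of 0.281 (chromosome 5, near Cdk6), a median of 1.11 and a highest of 3.82 (chromosome 11). Of the second boundaries 12 of 19 were strong (median 0.555), of the third 13 (median 0.626), and of the last boundary at the other end of each autosome 12 (median 0.672). Over all autosomal boundaries 54.3% were strong. In the first 1 Mb of the windows 38 of 52 boundaries were strong (73.1%, exact 95% interval 59.0 to 84.4%), and in the other 9 Mb 233 of 456 were (51.1%, 46.4 to 55.8%). The 52 include the first boundary of every autosome except chromosome 14, so this contrast is not separate from that of the first boundaries. These patterns were noticed in the data and were not tested. How the caller treats bins next to the unassembled end was not stated in the sources.

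Strength over the whole window did not pass as different from the rest. The median strength by window ran from 0.328 on chromosome 3 to 0.665 on chromosome 18, with a median of 0.530. It was above the rest on 11 autosomes and below it on 8, and the mean difference was -0.03 ± 0.0959 (SD, n = 19 autosomes; adjusted permutation p = 0.210). The largest falls were on chromosomes 9 (0.380 against 0.634), 13 (0.372 against 0.595) and 3 (0.328 against 0.50). Strong boundaries, those with a score of at least 0.5, made up 271 of the 508 (53.3%, exact 95% interval 48.9 to 57.8%) and 54.3% of the rest. The mean difference in the strong share was -1.63 percentage points ± 10.4 (SD over 19 autosomes; adjusted permutation p = 0.509). By chromosome the share ran from 33.3% on chromosome 9 to 71.9% on chromosome 18. Of the 100 strongest autosomal boundaries 11 were in the windows, which held 508 of all 7186, and the strongest window boundary ranked 2 among them.

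The 10 strongest proximal boundaries lay on 8 autosomes. The strongest (3.82; chromosome 11, 3195001 to 3200000) was in an intron of Drg1, which encodes a GTP-binding protein, and 1.54 kb from the TSS of Sfi1, which encodes a centrin-binding protein. It was also the first boundary of its chromosome, as were those ranked 4 and 10. The next (2.65; chromosome 3, 7320001 to 7325000) was intergenic, 41.7 kb from Pkia, which encodes an inhibitor of protein kinase A. The third (2.64; chromosome 13, 9870001 to 9875000) was 105 kb from Zmynd11, which encodes a histone reader. The fourth (2.53; chromosome 19, 3215001 to 3220000) lay 62.9 kb from Mrpl21, which encodes a mitochondrial ribosomal protein. The fifth (2.52; chromosome 17, 3565001 to 3570000) was 7.22 kb from Tfb1m, which encodes a mitochondrial rRNA methyltransferase.

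Those ranked 6, 7, 8 and 10 were nearest to the TSSs of Scgb2a2 (2.49), Frmd4a (2.46, 203 kb away), Ttc32 (2.38) and Hepacam2 (2.34). The one near Hepacam2 overlapped an exon of that gene. Among the 10 strongest, 2 had a TSS within 10 kb, 2 a CTCF consensus, and 7 lay outside protein-coding genes, counts near the shares over all 508 (27.4%, 21.5% and 56.5%). Among the 100 strongest, 30 had a TSS within 10 kb, 27 a CTCF consensus, and 60 lay outside genes. Among the 100 weakest these counts were 18, 11 and 62. On the other autosomes the strongest window boundaries ranged down to 1.59 (chromosome 10, in an intron of Rgs17, a regulator of G protein signalling). They were nearest to Hrh4 (2.33, in an exon of Impact), Shcbp1 (2.16), the metalloreductase family gene Steap1 (2.13), the collagenase gene Mmp13 (2.10), Fbxo4 (2.07), 2610301B20Rik (2.00), 1810013L24Rik (1.96), the platelet collagen receptor gene Gp6 (1.74), 4930452B06Rik (1.71) and St18 (1.70). The distance to these TSSs ran up to 714 kb, at 4930452B06Rik on chromosome 14, so the nearest gene is a landmark and not a target. For the 3 weakest boundaries the nearest TSSs were those of C6 (127 kb away), Klf6 (381 kb away) and Lgals8. The last of these boundaries covered the TSS of Lgals8 (0.201).

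Promoters stood at proximal boundaries more often than at other bins of the windows, at a share that did not pass as different from the rest. A protein-coding TSS lay within 10 kb of 139 of the 508 (27.4%, exact 95% interval 23.5 to 31.5%), of 32.2% in the rest and of 31.8% of all autosomal boundaries. Of all window bins 15.7% were that close to a TSS, and of all other bins 17.3%, so boundaries exceeded bins 1.74 times in the windows and 1.86 times elsewhere. The share at boundaries was above that of bins in 19 of 19 windows. The mean difference between window and rest was -4.82 percentage points ± 14.8 (SD, n = 19 autosomes; adjusted permutation p = 0.210). Chromosome 19 had the highest share, 66.7% of its window boundaries, with 33.5 TSSs per Mb and 53.8% of its window bins near a TSS. Without chromosome 19 the difference was -7.14 points (adjusted permutation p = 0.0244). Chromosome 9 had the lowest share, 8.33%, close to the 8.25% of its window bins.

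The CTCF consensus was within 10 kb of fewer boundaries in the windows, and this comparison passed. It was near 109 of the 508 (21.5%, exact 95% interval 18 to 25.3%), against 25.5% in the rest and 25.3% of all autosomal boundaries. The share ran from 8.0% on chromosome 1 to 36.1% on chromosome 11 and was lower than in the rest on 15 of 19 autosomes. The mean difference was -4.68 percentage points ± 6.40 (SD, n = 19 autosomes; permutation p = 0.00534, adjusted permutation p = 0.032). The sequence differed in the same direction, with 4.21 matches per Mb in the windows and 5.19 in the rest, and 9.58% of window bins against 11.4% of other bins within 10 kb of a match. The excess of boundaries over bins was 2.24 times in the windows and 2.23 times in the rest. The call did not hold without any 1 of chromosomes 1, 4, 5, 6, 9, 10 and 13 (adjusted permutation p from 0.0512 to 0.067), with summed counts (Fisher's exact test, adjusted p = 0.066), or with the match in the bin itself (adjusted permutation p = 0.124). It did not hold within 25 kb (0.0589), with strong boundaries alone (0.295) or with the last 10 Mb taken out of the rest (0.110), all adjusted permutation p. Against the next 10 Mb alone the direction reversed, at 2.56 percentage points (adjusted permutation p = 0.678). The call held with the window ending at 8 Mb (adjusted permutation p = 0.0258) or 23 Mb (adjusted permutation p = 0.00054). It also held against the last 10 Mb alone (adjusted permutation p = 0.0012).

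**Figure D5:**
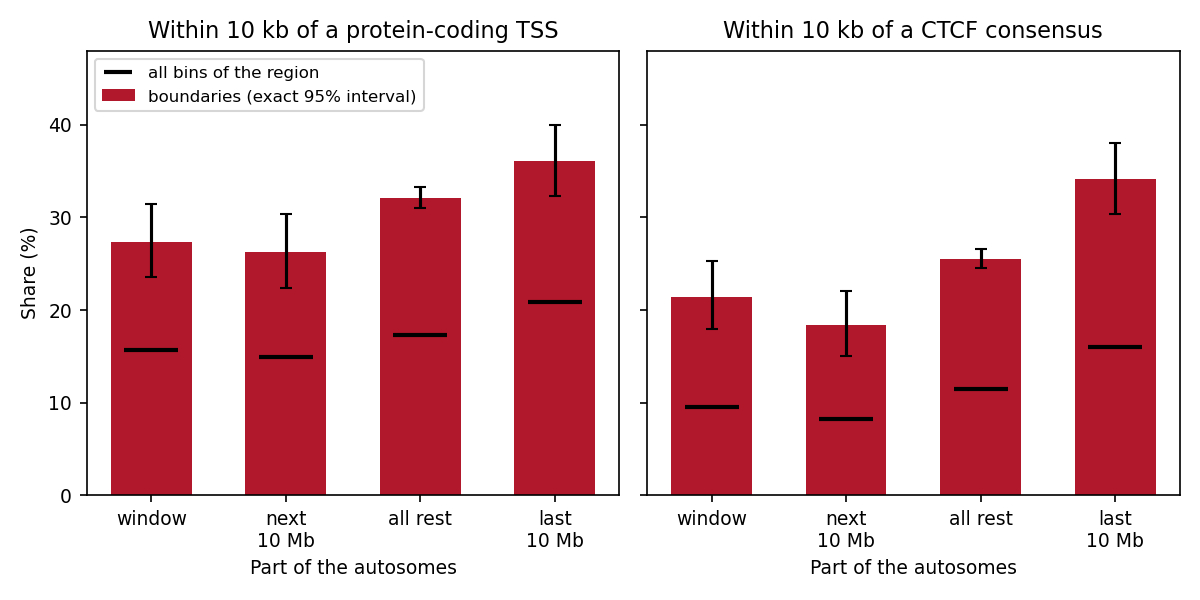
Share of boundaries within 10 kb of a protein-coding TSS or of a CTCF consensus (bars, with exact 95% intervals) and of all 5 kb bins (black marks), in the proximal window, the next 10 Mb, the whole rest and the last 10 Mb of the autosomes. Both shares are lowest in the first 20 Mb, and boundaries exceed bins in every part.

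Matches around proximal boundaries pointed away from them more often than toward them. Of 349 matches within 50 kb of a window boundary and outside its bin, 219 pointed away from it (62.8%, exact 95% interval 57.4 to 67.8%), and 66.8% did so in the rest (65.5 to 68.0%). The difference was not tested. In windows and rest, strength had the same order by feature. The median strength was 0.809 for the 37 window boundaries with both a TSS and a match. It was 0.724 for the 72 with the match alone, 0.655 for the 102 with a TSS alone and 0.434 for the 297 (58.5%) with neither. In the rest the same medians were 0.790, 0.70, 0.635 and 0.427. Of the window boundaries, 156 overlapped an exon of a protein-coding gene (30.7%, exact 95% interval 26.7 to 34.9%), as did 33.9% of the others. Introns alone held 12.8% and 13.5%, and 56.5% and 52.6% lay outside genes.

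Seen from the genes, 167 of the 1486 proximal TSSs (11.2%) were within 10 kb of a boundary, against 14.8% in the rest and 14.5% of all autosomal TSSs. The median distance to a boundary was 64.7 kb for proximal TSSs and 55.2 kb for the others. Of all autosomal protein-coding TSSs, 7.14% were in the windows. The windows held 29 of 119 type 2 vomeronasal receptor genes, all on chromosome 7, with 1 at a boundary (Vmn2r55, strength 0.362). They held 33 of 208 type 1 genes, 30 of them on chromosome 7, with 2 at a boundary (Vmn1r55 and Vmn1r84). The type 2 genes of chromosome 7 lay a median of 617 kb from a boundary and the type 1 genes 121 kb. Of 1128 olfactory receptor genes 42 were proximal (3.72%). Of these, 32 were on chromosome 19, and 2 were at a boundary (Olfr1344 and Olfr1441).

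All 19 Ms4a genes, a family that includes chemoreceptors of a separate class of olfactory neurons and surface proteins of immune cells, were in the window of chromosome 19 (10962293 to 11640851). That stretch held 2 boundaries, and the stronger (1.39; 10995001) overlapped an exon of Ms4a18, 1.75 kb from the TSS of Ms4a15. The stretch that follows, from Olfr1417 to Olfr1451 (11826803 to 13000417), includes 32 olfactory receptor genes and some others. It held 5 boundaries, 3 of them strong, with 2.07 the highest, near Olfr1423. Of the 32 receptor genes 1 was at a boundary, and another boundary covered the TSS of Patl1. The window ends inside this group of genes. None of 6 cytosolic ribosomal protein genes in the windows was at a boundary, against 28 of 72 in the rest. Of 8 mitochondrial ones 1 was (Mrps28, strength 1.55), against 18 of 70. Over all protein-coding TSSs the shares were 11.2% and 14.8%, and 6 or 8 genes are too few to compare. None of 49 proteasome, 67 histone or 53 keratin genes was in a window, against 7.14% of all autosomal protein-coding TSSs. Histone and keratin genes lie in clusters, so their members are not independent.

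The share of neuronal genes in the windows was near that of all autosomal protein-coding TSSs (7.14%). Adcy3, the adenylyl cyclase of olfactory signalling, was the only 1 of 23 autosomal genes of the mature neuron list in a window, 48.1 kb from a strong boundary (1.18; chromosome 12, 4080001) that covered the TSS of Dnajc27. Stmn2, a microtubule regulator and 1 of 11 immature neuron genes, was 4.36 kb from a strong boundary (0.788; chromosome 3, 8500001) that had a CTCF consensus within 10 kb. Another boundary (0.325) followed 90.0 kb after it. Of 14 autosomal cohesin and CTCF genes 3 were proximal. The cohesin loader gene Nipbl was 5.54 kb from a boundary (0.740; chromosome 15, 8450001) and had another 85.0 kb before that one, in its own exon (0.409). The cohesin acetyltransferase gene Esco1 was 85.4 kb from a boundary, and Cdca5, which encodes sororin, 40.0 kb. None of 27 Ldb1 partners and receptor choice genes, 8 progenitor genes or 20 genes of other epithelial cells lay in a window, and at 7.14% lists of these sizes would hold few or no proximal genes.

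Boundaries on either side of the 13 Mb limit had these values. The last boundary inside it lay between 5.00 and 845 kb before 13 Mb, with a median strength of 0.374 (0.209 to 2.33). The first outside lay between 5.00 and 1235 kb after it, with a median strength of 0.561 (0.205 to 3.01).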

How the data were processed

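In situ Hi-C was made from 2 biological replicates of 1 group, per the labels. Per the labels, the authors merged the replicates' contacts on GRCm38 before calling boundaries. Names of the caller, its window and any mask were not given in the sources used here. Each deposited strength is the authors' score of a 5 kb bin.

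Members were autosomal bins starting below 13 Mb. Density was boundaries per Mb of bins at most 50% assembly gap (GRCm38.p6). Start sites came from GENCODE M21 (21755 protein-coding genes). The CTCF consensus, searched in the sequence of both strands as a 12-base pattern with alternative bases at some positions, gave 12728 matches. Window and rest were compared within each of 19 autosomes by a two-sided permutation test (100000 sign flips). Benjamini-Hochberg adjustment ran over 6 results at a threshold of 0.05. Autosomes are not samples, so p-values describe variation along 1 pooled genome. Intervals are exact 95% intervals and cover counting error only. The members, lists and comparisons were chosen with earlier results of these data known. Genes were named by rule: those with the nearest start site to the strongest boundary of each window, to the 10 strongest, to the 3 weakest and to the earliest and latest first boundary, those in the 3 widest spacings, and fixed lists of neuronal, Ldb1, epithelial and cohesin genes. Exceptions are marked. The boundary ranked 9 is not reported here by name. Alternatives varied the window, the comparison region, the class, the distances and the autosomes. No sequence of chromosome 18 is printed. The permutation test was tried on simulated data for density and median strength only, with boundaries placed at random, and not for the other results. Software was Python 3.11.15 with scipy 1.17.1, numpy 2.4.6, matplotlib 3.10.9 and pandas 2.3.3.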

Additional observations from a re-analysis of the deposited data

Results flagged for a closer look

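Chromosome X was left out of the comparisons, and its list entries start in the same window. Its first 10 Mb held 22 boundaries, or 2.33 per Mb (95% Poisson interval 1.46 to 3.53), against 2.61 per Mb (2.36 to 2.88) in the rest of chromosome X. Of these 22, 8 were strong (36.4%, exact 95% interval 17.2 to 59.3%), against 28.4% in the rest of chromosome X. A protein-coding TSS was within 10 kb of 9 (40.9%), against 18.4% in the rest of chromosome X and 22.6% of the window's bins. A CTCF consensus was within 10 kb of 1 (4.55%), against 10.7% in the rest and 7.42% of the window's bins. The density intervals of window and rest overlapped.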

How the results depend on the processing

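No paired analysis was possible because both samples were pooled into a single group (pairs here are window and rest of an autosome). Leaving out a replicate was prevented by the pooling, and autosomes were left out instead. Values below are mean differences, window minus rest (boundaries per Mb, strength, kb or percentage points). Leaving out 1 autosome gave density differences from -0.40 to -0.28, median spacing from 21.1 to 32.5 kb, TSS share from -7.14 to -3.48 and CTCF share from -5.26 to -4.08. Density passed without chromosome 8, 15, 18 or 19, spacing without 15, 18 or 19, and TSS share without 19. With the window to 8 Mb, spacing (-2.50) and TSS share (0.431) reversed, and CTCF share (-7.33) still passed. To 23 Mb, density (-0.42) and spacing (34.9) passed, and CTCF share (-6.40) still did. Against the next 10 Mb all 6 reversed and none passed: density 0.0639, strength 0.0188, strong share 3.96, spacing -17.2, TSS share 0.942 and CTCF share 2.56. Against the last 10 Mb, density (-0.62) and spacing (38.9) passed, and CTCF share (-11.9) still did. With strong boundaries alone, median strength reversed (0.0133). The CTCF share did not pass without the last 10 Mb in the rest (-3.90), with strong boundaries (-3.71), in the bin (-2.16), within 25 kb (-6.87), pooled (-4.09), or without chromosomes 7 and 14 (-4.96). Without chromosomes 7 and 19, density (-0.35), spacing (31.8) and TSS share (-8.37) passed, and CTCF share (-4.53) still did. These last omissions were chosen after seeing the data. The causes were not tested. Of the alternatives other than single omissions, 9 reversed direction, 7 came to pass, 6 no longer passed and 40 were counted as unchanged. The 40 include pooled strength and pooled spacing, which had no test and kept direction only. Of the single omissions, 99 kept direction and side of the threshold, 8 came to pass and 7 no longer passed. The unknown depth limits every value.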
